A study of Mus musculus with 8 samples.

Results

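Acyl-CoA thioesterases split fatty acyl-CoA into a free fatty acid and coenzyme A, and 10 of their genes, Acot1, Acot2, Acot4, Acot6, Acot7, Acot8, Acot9, Acot11, Acot13 and Them4, were followed in white quadriceps of mice that lack Acot2 in muscle. They were chosen by name from the 54091 rows of the deposited expression table, and all 10 were among the 15657 genes with enough counts to test. The question was how much of the mRNA of the 10 genes Acot2 accounts for and in which compartment the rest works. It was also asked whether any other thioesterase differed where Acot2 was lost.

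RNA sequencing was done on 8 libraries of the pale, mostly fast-twitch portion of the thigh muscle, all from male mice aged 11 to 14 weeks. Replicates 5 to 8, the 4 knockout libraries, are from mice labelled CKM Cre, with Acot2 knocked out in muscle. Replicates 1 to 4, the 4 control libraries, are from mice labelled Loxp/Loxp. Both groups ate a 60% fat diet (Research Diets D12492) for 7 days, and the muscle was taken in the morning. Cre recombinase cuts out DNA between loxP sites, and the muscle creatine kinase promoter (Ckm) directs it to striated muscle, a design meant to leave Acot2 intact in the other cells of the tissue. Which Acot2 exons lie between the loxP sites is not given in the sources used here. Cre was carried by the knockout mice alone, so that its own effect and that of losing Acot2 cannot be told apart. Whether the 8 libraries are 8 animals is not given in the sources used here, and p-values therefore measure the spread between these samples.

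Cells keep thioesterases in separate compartments, where they act on separate pools of acyl-CoA. In the mitochondrial matrix they release fatty acids and coenzyme A from acyl-CoA that would otherwise enter β-oxidation. In peroxisomes they free the shortened products of very long-chain, branched and dicarboxylic acids for export, and in the cytosol they lower the acyl-CoA available for lipid synthesis and signalling. Acot1 to Acot6 are a family of close copies that lie side by side on mouse chromosome 12, while Acot7 to Acot13 and Them4 belong to another protein fold and are spread over the genome. For the sums below Acot2, Acot9, Acot13 and Them4 were placed in the mitochondrion, Acot1, Acot7 and Acot11 in the cytosol, and Acot4, Acot6 and Acot8 in the peroxisome. The placement is by the known main location of each protein and was not measured here. Acot13, Them4 and Acot11 have been found in more than one place.

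The signals that direct these enzymes to a compartment lie at the ends of their proteins, and the sequences for them are shown here. The Acot2 coding sequence starts 123 bases, or 41 codons, before the base that aligns with the first base of Acot1. This extension, in capitals, carries the mitochondrial targeting signal of the Acot2 protein. The runs below are from the GENCODE annotation of GRCm38 and lie on the plus strand at chr12:83987902-83988054 for Acot2 and at chr12:84009510-84009539 for Acot1.
Acot2: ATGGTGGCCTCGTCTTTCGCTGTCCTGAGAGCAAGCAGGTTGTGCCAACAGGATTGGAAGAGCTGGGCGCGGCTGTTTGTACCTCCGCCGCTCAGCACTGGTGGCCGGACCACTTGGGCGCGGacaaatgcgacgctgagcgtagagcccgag
Acot1: atggaggcgacgctgaaccttgagccctcg

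At the other end of the coding sequence, the last 3 codons before the stop codon, in capitals, are where the common peroxisomal targeting signal lies. Acot4 (chr12:84043764-84043793, plus strand), Acot6 (chr12:84109507-84109536, plus strand) and Acot8 (chr2:164792895-164792924, minus strand) are the peroxisomal enzymes, and Acot2 (chr12:83993048-83993077, plus strand) is set beside them.
Acot4: agtacccacagcagagcctccTGTAGACTG
Acot6: ggtgaaaagcctgccaggcacAGCAAACTG
Acot8: ttgaagcctcaggtgtcagagAGTAAGCTA
Acot2: ttcttccacaaacagttgggtAGCAAGAGT

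Values are normalized counts, that is, each gene's reads scaled by its library's size factor. They are comparable between libraries for 1 gene. Which of several genes is more abundant is judged only on normalized counts per kilobase of annotated exon. Ratios and shares of counts, in which long transcripts weigh more, are set between the groups for the same gene or compartment. The libraries held 55283997 to 109101280 reads, and 3 reads, taken as the floor for a gene not detected, equalled a normalized count of 2.04 to 3.87. The 10 genes together received 9897 to 18076 reads per library, which was 0.0161% to 0.0223% of all reads. With that many reads, the 95% Wilson interval of a gene's share in 1 library reached at most 0.984 percentage points to either side, for counting error only. Fast-fibre genes led in every library, as the tissue label states: the sum of 9 fast muscle markers was 11538752 to 12998695 in knockouts and 9949400 to 12752639 in controls. Control replicates 3 and 4 stood apart: the first principal component, with 34.5% of the variance, placed them at 55.2 and 56.1 and the other libraries at -38.6 to 0.6. In these 2 libraries the genes with the shortest exons were low. Their median deviation from each gene's mean was 0.11 to 0.17 in knockouts, -0.29 and -0.31 in control replicates 3 and 4, and 0.06 in both control replicates 1 and 2 (log2 scale). Knockout replicate 8 held heart transcripts, with a sum of 10001 over 7 heart markers against at most 1380 in each of the other 7 libraries. In bulk tissue, fewer cells of a type and less RNA per cell cannot be told apart.

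Acot2 was the only one of the 10 thioesterases that passed the test, and it fell to 10.6% of control by the fitted log2 difference. Acot6 was lower in every knockout library and the cytosolic Acot7 higher in most, but neither passed. The summed thioesterase level per kilobase, most of it Acot13, overlapped between knockout and control muscle, with control replicates 1 and 2 above and control replicate 4 below all knockouts. Of the 10 genes, 1 fell and 0 rose at an adjusted p under 0.05 (limma, Benjamini-Hochberg over 15657 genes), against a background of 0.00639% of all genes tested, a count of 1 gene that was Acot2 itself. That background rests on single libraries, since 1720 genes passed without control replicate 1 and 2048 without control replicate 2. With voom on recovered reads, Acot2 was again the only gene of 15657 that passed, so each count of 0 below holds for voom too. Estimates were higher for 6 thioesterases and lower for 4, with a median log2 difference of 0.03 against 0.003 over all genes. The groups did not overlap for 2 of the 10, both lower in knockouts, namely Acot2 and Acot6. Over all genes tested, the groups did not overlap for 13.1%, with 7.06% lower and 6.06% higher. An unadjusted p under 0.05 was reached by 4 of the 10 (limma: Acot2, Acot4, Acot6 and Acot7) and by 26.9% of all genes.

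**Figure D1:**
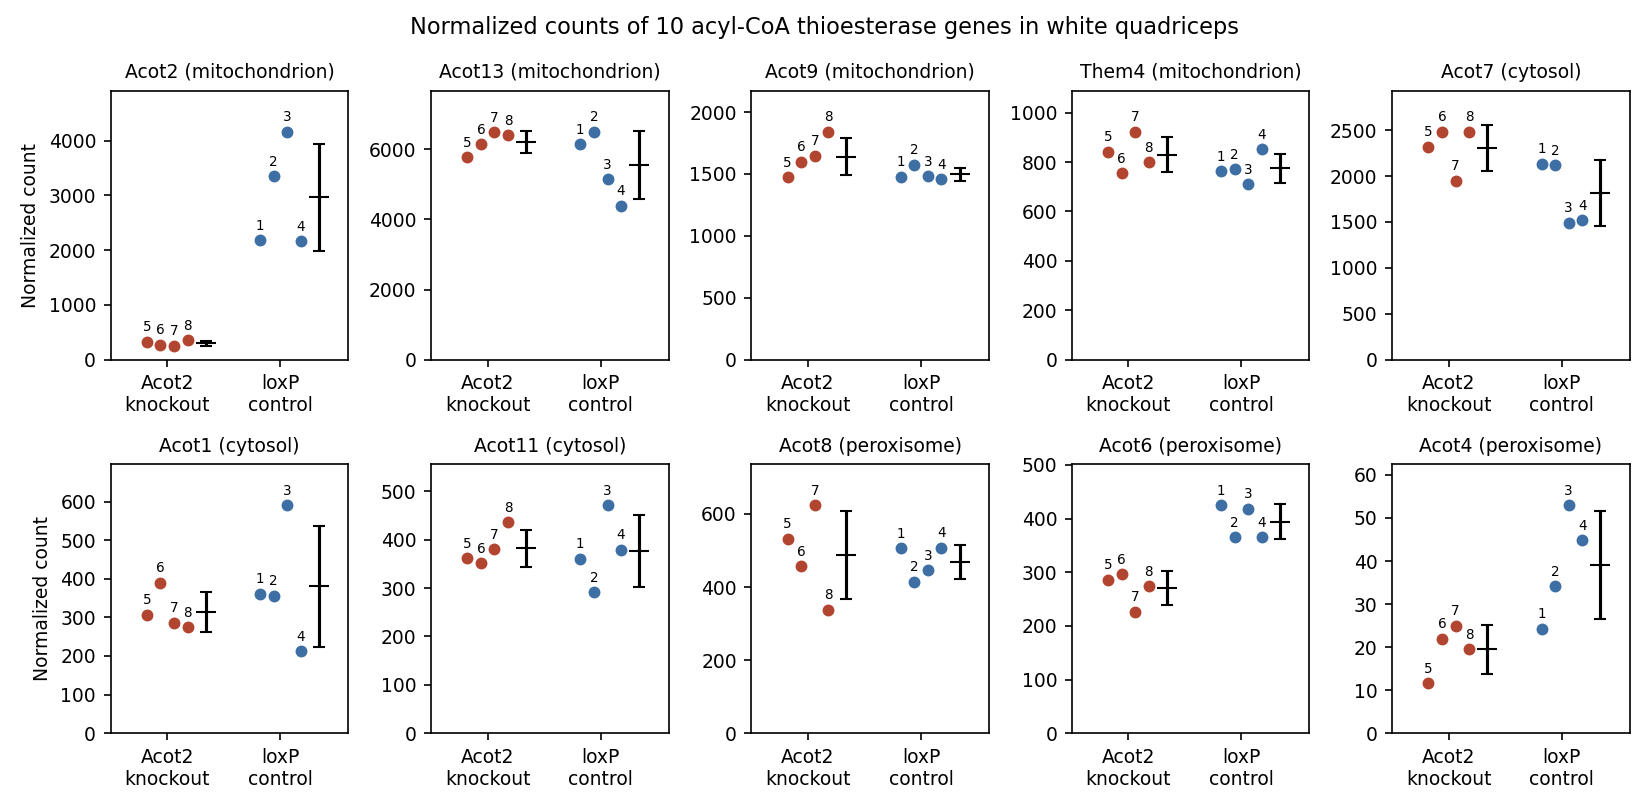
Normalized counts of the 10 thioesterase genes in each library, with 1 panel per gene on its own axis from 0; points are libraries numbered by replicate, and the bars are mean ± SD (n = 4 each). Acot2 lies at 256.4 to 354.0 in the 4 knockout libraries, below its 2166.2 to 4165.4 in the 4 control libraries, and Acot6 is the only other gene whose groups do not overlap.

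Among the mitochondrial enzymes, Acot2, which hydrolyses long-chain acyl-CoA in the matrix, fell to 10.6% of its control level by the fitted log2 difference. It lies on the plus strand at chr12:83987861-83993873 and its transcript has 3 exons with 2196 bases. Its normalized count was 324.8, 273.4, 256.4 and 354.0 in knockout replicates 5 to 8, against 2179.1, 3347.7, 4165.4 and 2166.2 in control replicates 1 to 4. All knockout libraries were far below all controls, and the controls themselves spread widely, with replicate 3 the highest. The means were 302.2 ± 45.2 in knockouts and 2964.6 ± 973.5 in controls (SD, n = 4 each). The log2 difference was -3.24 ± 0.20 (SE; limma, adjusted p = 4.72e-06), with a 95% interval of -3.68 to -2.81. Permuting the 8 libraries gave an exact two-sided p of 0.0286, which is the lowest value that groups of 4 and 4 can reach.

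Some Acot2 reads remained in every knockout library, 335, 212, 246 and 290 in replicates 5 to 8, against 2065, 3332, 5026 and 3191 in control replicates 1 to 4. Knockout replicate 8, the library with heart transcripts, had the highest remaining normalized count of the 4, but by a small margin over replicate 5. The part that heart tissue, cells outside the Ckm promoter's reach, undeleted exons and reads shared with Acot1 had in the remainder was not tested.

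Acot13 (Them2), a small thioesterase that associates with mitochondria and prefers medium- and long-chain acyl-CoA, was the most abundant member per kilobase in both groups. Its gene lies on the minus strand at chr13:24817948-24831540 with only 744 exon bases. Its normalized counts were 5774.8, 6140.6, 6480.0 and 6398.3 in knockouts, against 6143.6, 6503.8, 5153.4 and 4392.0 in controls. Control replicates 3 and 4 were the lowest of the 8, and control replicates 1 and 2 lay within the range of the knockouts or above it. Knockouts differed from controls by 0.18 ± 0.13 on the log2 scale (SE; limma, adjusted p = 0.388), and it turned to -0.03 when control replicates 3 and 4 were left out. With the trend over exon length removed it was -0.08, and with both changes -0.12.

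Acot9 acts on short- and long-chain acyl-CoA in mitochondria. Its normalized count was 1475.6, 1597.9, 1646.8 and 1842.2 in knockouts and 1478.4, 1573.4, 1480.3 and 1457.4 in controls. The groups overlapped and knockout replicate 8 was the highest library (log2 difference 0.13 ± 0.11, SE; limma, adjusted p = 0.458), and the sign turned to -0.02 with the length trend removed. Of the 50-base windows in Acot9 exons, 15.2% also occur in its single-exon copy Acot10, whose coding sequence is 97.2% identical over 1317 bases. At most 1 read in a knockout library and 2 in a control library were counted for Acot10.

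Them4, first described as a protein that binds the kinase Akt and later as a mitochondrial thioesterase, spread from 754.5 to 923.5 in knockouts and from 710.3 to 851.3 in controls. The 2 ranges overlapped over most of their length. Its mean was 830.0 ± 71.9 in knockouts and 774.3 ± 58.1 in controls (SD, n = 4 each; log2 difference 0.10 ± 0.12, SE; limma, adjusted p = 0.618).

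In the cytosol, Acot7, which is best known from brain and prefers long-chain acyl-CoA, was the most abundant member per kilobase. Its normalized count was 2321.1, 2482.7, 1950.1 and 2484.3 in knockouts, against 2133.7, 2118.0, 1491.0 and 1517.9 in controls. Knockout replicates 5, 6 and 8 were above all controls, replicate 7 was below control replicates 1 and 2, and control replicates 3 and 4 were the lowest libraries. The log2 difference was 0.36 ± 0.15 (SE; limma, adjusted p = 0.138), and it shrank to 0.11 without control replicates 3 and 4, to 0.19 with the length trend removed and to 0.05 with both. Of 6 neuron markers, Snap25 and Nefl were at or near 0 in all libraries, at no more than 4.8 and 8.8. Nefm was at no more than 8.5 in knockouts and 1.1 in controls. The 3 that could be tested, Tubb3, Stmn2 and Uchl1, had higher estimates in knockouts, at 0.73, 0.29 and 0.63. None of them passed (limma, adjusted p = 0.314, 0.462 and 0.115). Summed over all 6 neuron markers, the range was 522.6 to 897.3 in knockouts and 399.8 to 683.2 in controls, and their part in the Acot7 counts was not tested.

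Acot11 carries a lipid-binding domain and is known in mice as the thioesterase induced in brown fat by cold. It ranged from 350.8 to 435.8 in knockouts and from 291.4 to 471.6 in controls, with the control range enclosing that of the knockouts (log2 difference 0.04 ± 0.17, SE; limma, adjusted p = 0.896). The sign turned to -0.08 without control replicate 2 and to -0.02 without knockout replicate 8. The brown fat gene Ucp1 was at 1458.2, 16.8, 0.0 and 885.1 in knockout replicates 5 to 8, against 12.7, 12.1, 133.4 and 0.0 in control replicates 1 to 4. Ucp1 was thus high in knockout replicates 5 and 8, of which replicate 8 had the highest Acot11 of its group and replicate 5 did not stand out. Among controls, replicate 3 was highest for both genes, at 133.4 for Ucp1 and 471.6 for Acot11. Summed over all 5 brown fat markers, the range was 1231.7 to 3658.2 in knockouts and 1180.8 to 1953.5 in controls. The part of brown fat in the Acot11 values was not tested. Fam151a runs across 20.9% of the Acot11 exon bases on the opposite strand, and the strand setting of the counting is not given in the sources used here.

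Acot1, the cytosolic close copy of Acot2, hydrolyses long-chain acyl-CoA and is known as a target of the fatty acid receptor PPARα. The gene lies at chr12:84009490-84018371 on the plus strand, 21.6 kb from the start of Acot2. Its normalized count was 306.4, 389.5, 286.6 and 274.7 in knockouts and 360.9, 355.7, 590.9 and 212.5 in controls. The controls enclosed all 4 knockouts, with control replicate 3 the highest and replicate 4 the lowest library of all. The mean was 314.3 ± 51.8 in knockouts and 380.0 ± 156.5 in controls (SD, n = 4 each). The log2 difference was -0.19 ± 0.25 (SE; limma, adjusted p = 0.643), its 95% interval ran from -0.74 to 0.35, and it was 0.05 without control replicate 3. That interval leaves room for a rise of 0.35 on the log2 scale as for a larger fall.

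Acot1 and Acot2 are alike enough for reads to match both. Their coding sequences are 95.3% identical over 1236 aligned bases, and the longest identical run has 273 bases, within 1 exon of each gene. Of the 50-base windows along the exons, 24.5% of those of Acot2 occur in Acot1, and 13.6% of those of Acot1 occur in Acot2. Most windows are thus found in only 1 of the 2 genes. The 60 aligned coding bases within 1 exon that differ most are shown, with their 13 differences in capitals. Sequence outside the aligned coding part was not searched for this. They lie on the plus strand at chr12:83992664-83992723 for Acot2 and at chr12:84016942-84017001 for Acot1.
Acot2: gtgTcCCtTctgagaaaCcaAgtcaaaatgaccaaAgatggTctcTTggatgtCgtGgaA
Acot1: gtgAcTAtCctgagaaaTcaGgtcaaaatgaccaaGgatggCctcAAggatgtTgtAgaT

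The ratio of Acot2 to Acot1 within a library does not depend on how the library was scaled. Taken on counts, it was 1.06, 0.702, 0.895 and 1.29 in knockouts, against 6.04, 9.41, 7.05 and 10.2 in controls. The 2 groups were well apart. Since the merged exons of Acot2 are shorter, the ratio per kilobase was higher, at 1.89, 1.25, 1.6 and 2.3 in knockouts, against 10.8, 16.8, 12.6 and 18.2 in controls. Acot2 thus stayed above Acot1 per kilobase of merged exon in every library. Per kilobase of the longest transcript, the 2 genes came close in knockouts. There Acot2 held 1.13% ± 0.176 and Acot1 0.987% ± 0.175 of the thioesterase sum (SD, n = 4). The order in every library is therefore shown for merged exon length only. By counts, the mean was 0.986 ± 0.249 in knockouts and 8.17 ± 1.95 in controls (SD, n = 4 each), a difference of -3.05 on the log2 scale (exact two-sided permutation p = 0.0286).

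**Figure D2:**
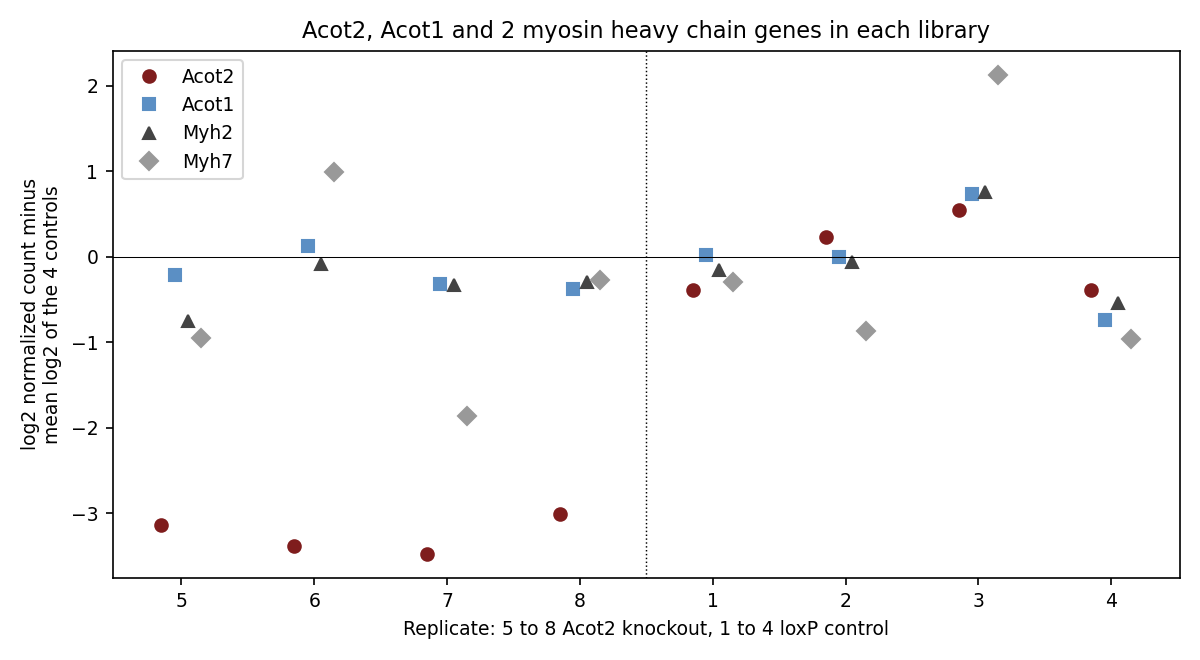
Log2 normalized count of Acot2, Acot1 and 2 myosin heavy chain genes in each library, minus the mean log2 of the 4 controls; points are single libraries, knockout replicates 5 to 8 on the left and control replicates 1 to 4 on the right of the dotted line. Acot2 is low in all 4 knockouts only, while Acot1 and Myh2 are both highest in control replicate 3, at 590.9 and 143499.9.

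By the smallest mean absolute difference between centred log2 values over the 8 libraries, Egln3, Zdhhc23 and Myh2 had the patterns most like that of Acot1, at 0.16, 0.16 and 0.17, where Acot1's own mean absolute deviation was 0.31. Myh2, the heavy chain of oxidative fast fibres, was at 50422.2, 80137.1, 67438.2 and 69103.9 in knockouts and at 76320.4, 81532.2, 143499.9 and 58594.4 in controls. As for Acot1, the highest library was control replicate 3. Over all 7 slow muscle markers, the sum was 23804.8 to 80416.7 in knockouts and 17165.5 to 95175.4 in controls, with the highest value again in control replicate 3 and the lowest in control replicate 4. The slow-fibre myosin Myh7 alone reached 15187.6 in control replicate 3. The part of fibre makeup in the spread of Acot1 was not tested. The patterns most like that of Acot2 were those of Pex5l, Zfp109 and Gm13152, at 0.59, 0.63 and 0.63 against an own deviation of 1.62. They were distant matches, and none of the 3 passed the test (limma, adjusted p = 0.0796, 0.0796 and 0.081). Normalized counts were low for Pex5l and Gm13152 in all libraries. Zfp109 was low in knockouts only, at 8.3 to 18.1 against 41.2 to 160.9 in controls.

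Of the peroxisomal enzymes, Acot6, which in mice hydrolyses branched phytanoyl-CoA and pristanoyl-CoA, was lower in every knockout library but did not pass the test. It lies at chr12:84100654-84111349 on the plus strand, 112.8 kb from the start of Acot2. Its normalized count was 286.0, 296.6, 226.2 and 273.5 in knockouts, against 425.3, 365.7, 418.5 and 365.9 in controls. The highest knockout was below the lowest control, and both groups were tight. The means were 270.6 ± 31.1 in knockouts and 393.9 ± 32.5 in controls (SD, n = 4 each). By the fitted log2 difference, the knockouts were at 68.6% of control. The log2 difference was -0.54 ± 0.15 (SE; limma, adjusted p = 0.0796), with a 95% interval of -0.87 to -0.22 and an exact two-sided permutation p of 0.0286. The adjusted p (limma) was 0.0434 with sample quality weights and 0.044 without control replicate 2, settings under which 1201 and 2048 genes passed. With the trend over exon length removed it was 0.124 at a difference of -0.42, and without control replicates 3 and 4 it was 0.603 at -0.55. Over all alternatives the adjusted p ran from 0.0434 to 0.704 while the difference stayed between -0.63 and -0.42. Only 0.4% of the 50-base windows of Acot6 occur in Acot2, and 3.8% occur in any other gene.

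Acot4, a peroxisomal enzyme that in mice acts on succinyl-CoA and other dicarboxylic acyl-CoA, had few reads. Its normalized count was 11.6, 21.9, 25.0 and 19.5 in knockouts, against 24.3, 34.2, 53.0 and 44.8 in controls. Knockout replicate 7 was just above control replicate 1, and the other 3 knockouts were below all controls. Between the groups the log2 difference was -0.96 ± 0.40 (SE; limma, adjusted p = 0.148), and on log2(count + 1) the change of a gene at this level is understated. Without control replicates 3 and 4 and with the trend over exon length taken out, it was -0.56.

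Acot8, the third peroxisomal enzyme, has a broad range of substrates that includes bile acid CoA esters. It was at 532.3, 456.6, 624.3 and 338.2 in knockouts and at 506.5, 414.0, 446.7 and 507.8 in controls. The knockouts spread beyond the controls on both sides. The log2 difference was 0.03 ± 0.18 (SE; limma, adjusted p = 0.94), and it was -0.16 with the length trend removed. It was also below 0 without control replicate 2, knockout replicate 5 or knockout replicate 7 (-0.03, -0.03 and -0.10).

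**Figure D3:**
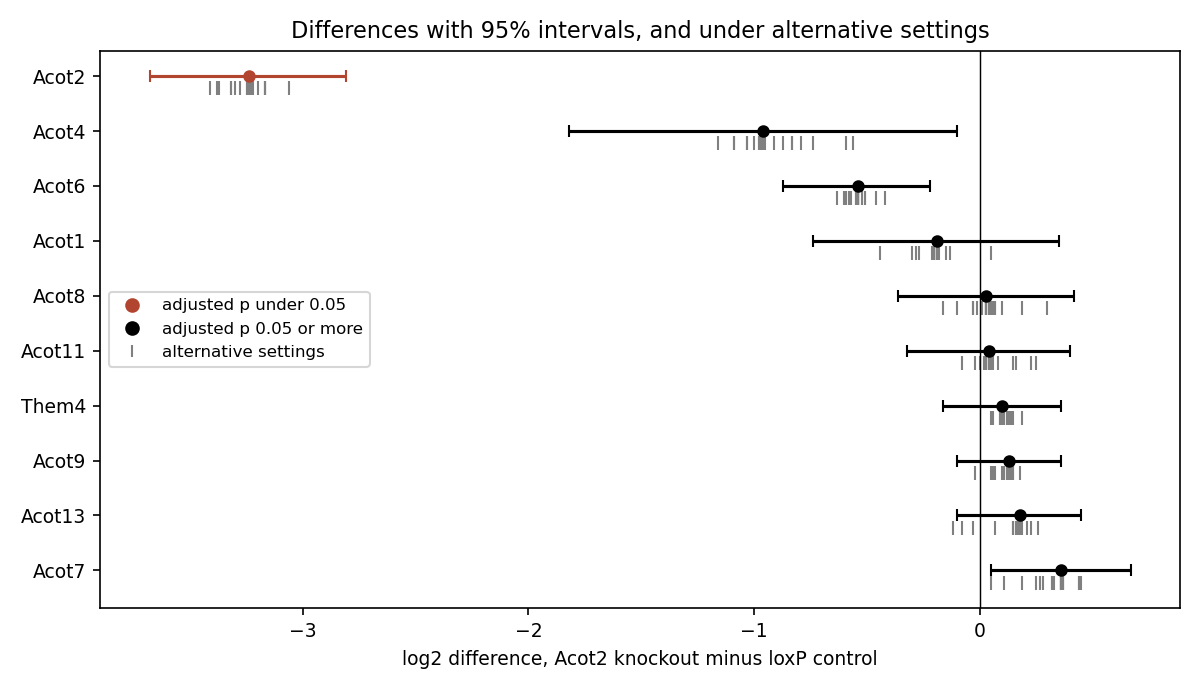
Log2 difference (knockout minus control) of the 10 thioesterases with 95% intervals from limma; grey ticks are the values under the alternative settings. The interval of Acot2, -3.68 to -2.81, lies far from 0; those of Acot4, Acot6 and Acot7 also leave out 0 without passing the adjusted threshold, and the other 6 include it.

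The 4 measured genes of the chromosome 12 cluster all had lower estimates in knockouts, though only Acot2 passed. Over 15140 tested genes, longer exons went with lower estimates in knockouts (Spearman rho -0.41), and Acot1, Acot4 and Acot6 have 3919, 6674 and 6413 exon bases. With the trend over exon length removed, these 3 were at -0.20, -0.83 and -0.42. Without control replicate 3, Acot1 was at 0.05. Acot1, Acot4 and Acot6 lie 21.6, 50.5 and 112.8 kb from the start of Acot2, all on the plus strand, with Acot3 and Acot5 between Acot4 and Acot6. The 95% intervals of these 3 genes overlapped, so that no order among them is shown. Summed over Acot1, Acot4 and Acot6, the normalized count was 604.0, 708.1, 537.8 and 567.7 in knockouts, against 810.4, 755.6, 1062.5 and 623.2 in controls. Control replicate 4 fell within the range of the knockouts and the other 3 controls were above it, with control replicate 3 far the highest. The mean sum was 604.4 ± 74.2 in knockouts and 812.9 ± 184.0 in controls (SD, n = 4 each), or 74.3% of control. Acot3 had 0 reads in all 8 libraries, below the floor of 3 reads, and Acot5 had at most 4 in a knockout library and 1 in a control library.

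**Figure D4:**
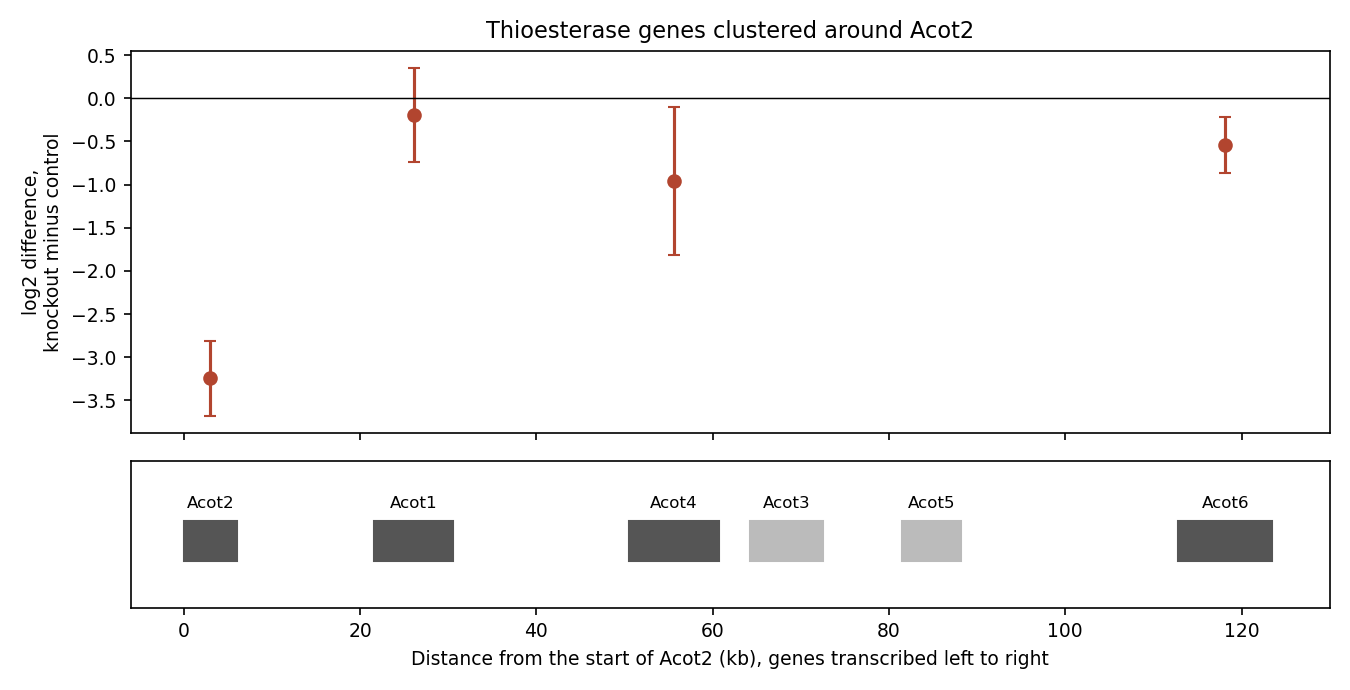
Thioesterase genes on chromosome 12 by distance from the start of Acot2; the boxes below are gene bodies (dark where the gene was tested), and the points above are log2 differences, knockout minus control, with 95% intervals from limma. The estimates are -3.24 for Acot2, -0.19 for Acot1, -0.96 for Acot4 and -0.54 for Acot6.

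Per kilobase of exon, the order of the 10 genes differed between the groups by the place of Acot2. In knockouts, Acot13 was highest at 8331.2, Acot7 followed at 1087.4, Acot9 at 721.8, Acot8 at 244.3 and Them4 at 206.2, and Acot2 was sixth at 137.6. After it came Acot1 at 80.2, Acot11 at 63.1, Acot6 at 42.2 and Acot4 at 2.93. By merged exon length, neighbours in this order had separate ranges over the 4 knockout libraries, apart from Acot8 and Them4 and from Acot1 and Acot11. In controls, Acot2 ranked second, at 1350.0 behind Acot13 at 7457.3. Its range met that of Acot7, the third at 854.6. The further order was Acot9, Acot8, Them4, Acot1, Acot11, Acot6 and Acot4, where Acot8 and Them4, Acot1 and Acot11, and Acot11 and Acot6 overlapped. The order of Acot11 and Acot6 depends on the length used. Per kilobase of the longest transcript, Acot6 held 0.613% of the sum in knockouts and 0.907% in controls. Acot11 then held 0.549% in knockouts and 0.557% in controls. On that length Acot2 and Acot1 also came close in knockouts, at 1.13% and 0.987%. Among 15140 tested genes with a known length, the per-kilobase level of Acot2 was at percentile 51.1 in knockouts and 88.3 in controls, whereas that of Acot13 was at 97.6 in knockouts and 97.5 in controls.

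As a share of all normalized counts on the 10 genes, Acot2 made up 2.37% ± 0.347 in knockouts and 20.6% ± 5.4 in controls (SD, n = 4 each). It was 2.65%, 2.14%, 2.0% and 2.68% in knockout replicates 5 to 8, against 15.2%, 21.2%, 27.8% and 18.2% in control replicates 1 to 4. No knockout library came near a control, and among controls replicate 3 had the highest share and replicate 1 the lowest. Counts favour long transcripts, and per kilobase of exon the share of Acot2 was smaller, 1.26% ± 0.199 in knockouts and 12.3% ± 3.73 in controls. Acot13 took 76.3% ± 1.11 of the per-kilobase sum in knockouts and 67.8% ± 3.42 in controls. By counts, where its short mRNA weighs less, it took 48.6% ± 1.46 in knockouts and 38.8% ± 3.84 in controls. Acot7 took 18.1% ± 1.94 of the counts in knockouts and 12.7% ± 2.05 in controls, again with no overlap, but per kilobase its groups overlapped (9.98% ± 1.19 in knockouts and 7.78% ± 0.943 in controls).

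Shares must add up to 100%, so that the fall of Acot2 raises the others by itself. Among the 9 other genes alone, Acot13 made up 49.8% ± 1.37 of the counts in knockouts and 48.9% ± 3.14 in controls, and Acot7 18.6% ± 2.02 in knockouts and 16.0% ± 1.67 in controls. Both overlapped between groups. The share of Acot6 was 2.18% ± 0.278 in knockouts and 3.51% ± 0.414 in controls and did not overlap. Mitochondrial enzymes held 67.9% to 72.2% of the counts on these 9 genes in knockouts and 67.9% to 71.2% in controls, so that apart from Acot2 the compartment shares overlapped between the groups.

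With Acot2 included, the mitochondrial enzymes held 68.8%, 68.7%, 72.7% and 71.1% of the counts on the 10 genes in knockouts, against 73.5%, 77.3%, 76.8% and 74.5% in controls. The groups did not overlap, although knockout replicate 7 and control replicate 1 nearly met. The cytosolic share was 24.4%, 25.2%, 20.4% and 24.2% in knockouts, against 19.9%, 17.5%, 17.0% and 17.7% in controls, and it too separated the groups by a narrow gap. The peroxisomal share was 6.12% ± 0.961 in knockouts and 6.41% ± 1.07 in controls (SD, n = 4 each) and overlapped. Per kilobase the picture flattened: the mitochondrial share was 86.0% ± 1.12 in knockouts and 88.0% ± 0.938 in controls, and all 3 compartments overlapped between groups. These shares depend on where Acot13 is counted. With Acot13 and Them4 placed in the cytosol and Acot11 in the mitochondrion, mitochondrial counts were 18.2% in knockouts and 33.9% in controls.

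**Figure D5:**
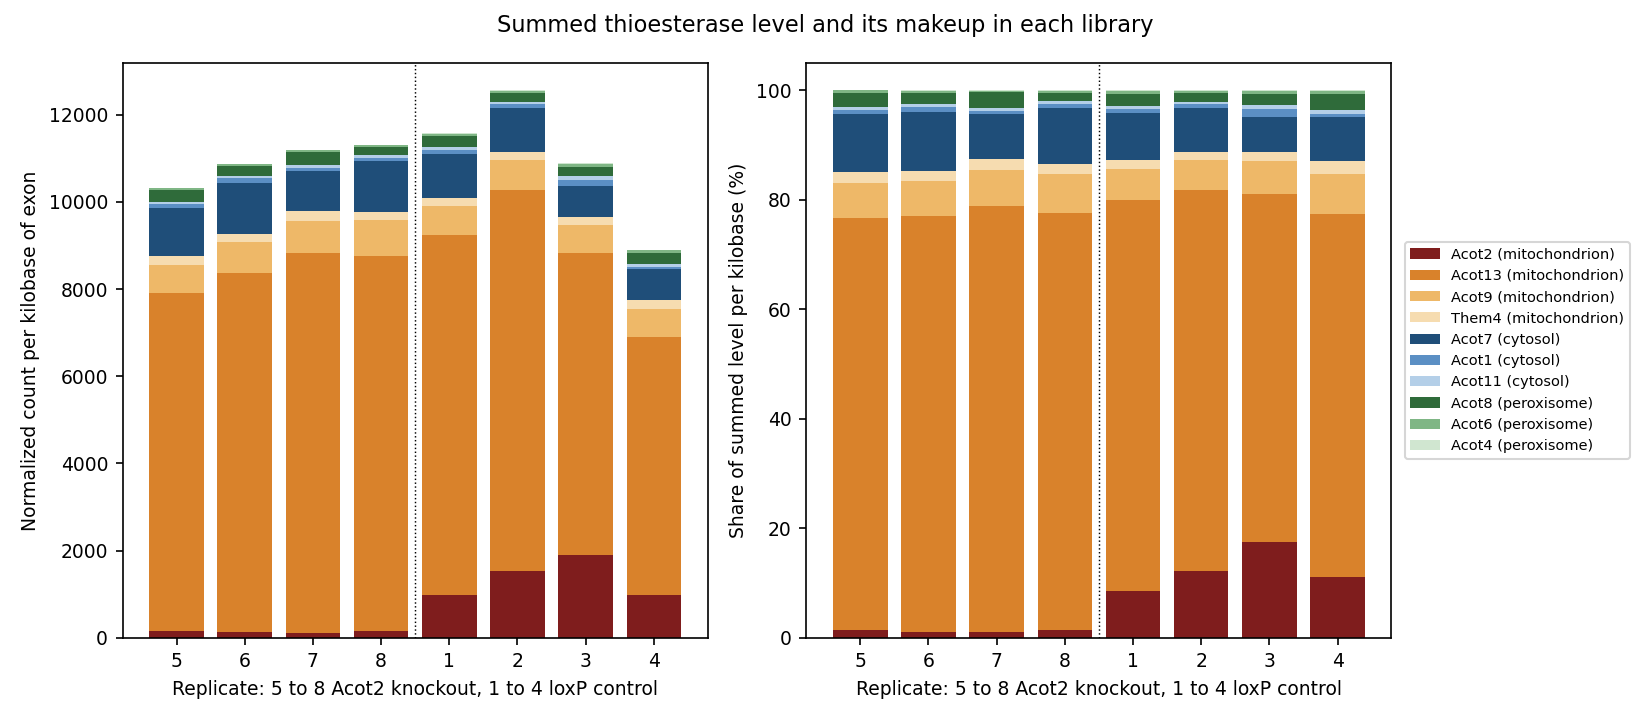
Summed normalized counts per kilobase of exon of the 10 thioesterases in each library (left) and the same as a share of the sum (right), stacked by gene with mitochondrial genes in red to yellow, cytosolic in blue and peroxisomal in green. Acot13 fills most of every bar; Acot2, the lowest segment, is 1.26% on average in knockouts and 12.3% in controls.

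The summed per-kilobase level of the 10 genes was 10916.9 ± 441.5 in knockouts and 10974.0 ± 1549.3 in controls (SD, n = 4 each), a knockout level of 99.5% of control. The libraries gave 10311.8, 10872.9, 11186.1 and 11296.8 in knockouts, against 11569.9, 12555.6, 10878.7 and 8891.9 in controls. Control replicates 1 and 2 were above every knockout, control replicate 3 lay among the knockouts and control replicate 4 below them all. The near equality of the means thus rests largely on control replicate 4, at 8891.9, while control replicate 3 was close to the control mean. By counts, the sum was 12755.2 ± 402.9 in knockouts and 14257.2 ± 1675.6 in controls, or 89.5%, with control replicates 1 to 3 above the highest knockout and control replicate 4 below the lowest. Without Acot2, the per-kilobase sum of the other 9 was 10779.3 ± 443.7 in knockouts and 9624.0 ± 1443.9 in controls. Its values were 10163.9, 10748.3, 11069.3 and 11135.6 in knockouts, against 10577.6, 11031.2, 8981.9 and 7905.5 in controls. Control replicates 1 and 2 lay among the knockouts, and control replicates 3 and 4, where Acot13 and short-exon genes at large were low, had the 2 smallest sums. The part of that length trend in the sum was not tested.

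Of 15 other genes for thioesterases and related acyl hydrolases, 8 had enough counts to test and 0 passed (limma). Estimates were higher for 5 and lower for 3, with a median of 0.10, and 1 had an unadjusted p under 0.05. That gene was Lypla2, which removes palmitoyl groups from proteins, at 3381.5 ± 240.1 in knockouts and 2504.0 ± 562.6 in controls (SD, n = 4 each; log2 difference 0.46 ± 0.15, SE; limma, adjusted p = 0.0881). Its groups did not overlap, and control replicates 3 and 4 were lowest at 2089.5 and 1954.3. The close relative Lypla1 was at 0.01, and the lysosomal palmitoyl thioesterases Ppt1 and Ppt2 were at -0.16 and 0.28. Abhd10, a mitochondrial depalmitoylase, was at 0.19, Them6 at 0.19, Hibch, a hydrolase of valine breakdown, at -0.09 and Lyplal1 at -0.20. The liver enzyme Acot12 and the medium-chain hydrolase Olah had 0 reads in all libraries, and Them5 and Baat at most 14. All 15 are outside the shares above, which hold for the 10 chosen genes only. Their summed normalized count was 17116.8 to 20044.3 in knockouts and 16612.6 to 18985.7 in controls.

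The enzymes that make and use acyl-CoA were read from lists in the same fit, and 0 genes passed in any of them. Of 12 tested acyl-CoA synthetases, 5 estimates were higher and 7 lower, with a median of -0.08 and 4 at an unadjusted p under 0.05, a level that 26.9% of all genes tested reached. Acsl1, the main long-chain synthetase of muscle, was at 19206.7 ± 893.9 in knockouts and 28894.2 ± 7282.1 in controls (SD, n = 4 each; -0.56 ± 0.15, SE; limma, adjusted p = 0.0796), with no overlap, and Acsl6 was at -0.45 ± 0.14 (adjusted p = 0.0859). Of 13 mitochondrial users of acyl-CoA, 8 were higher and 5 lower, with a median of 0.07 and 2 at an unadjusted p under 0.05. These were Crat, which makes short-chain acylcarnitines, at -0.34 ± 0.11 (adjusted p = 0.0879), and Cpt1b, which makes long-chain acylcarnitines, at -1.42 ± 0.40 (adjusted p = 0.0796). The Cpt1b value rests on few reads, with normalized counts of 27.1 ± 13.0 in knockouts and 68.8 ± 16.9 in controls (SD, n = 4 each). Whether this row holds all reads of Cpt1b was not tested, so that it is no measure of how abundant Cpt1b is.

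Peroxisomal users numbered 13 tested, 5 higher and 8 lower, with a median of -0.15 and 5 at an unadjusted p under 0.05, beside the same 26.9%. The thiolase Acaa1a was at 6415.0 ± 731.2 in knockouts and 4471.1 ± 683.9 in controls (SD, n = 4 each), with no overlap (log2 difference 0.53 ± 0.13, SE; limma, adjusted p = 0.0796). Genes for the supply and breakdown of coenzyme A were 11, 6 higher and 5 lower, with a median of 0.0 and 3 at an unadjusted p under 0.05. They were led by Nudt19, a peroxisomal hydrolase of coenzyme A, at 0.42 ± 0.16 (adjusted p = 0.119) and by Pank4 at -0.25 ± 0.10 (adjusted p = 0.121). Among PPAR receptors and responsive genes, 12 were tested, 5 higher and 7 lower, with a median of -0.12 and 1 at an unadjusted p under 0.05. That was Ppara itself, at 114.9 ± 34.9 in knockouts and 236.7 ± 114.3 in controls (SD, n = 4 each; -0.93 ± 0.35, SE; limma, adjusted p = 0.121), with overlapping groups. Rxra, its partner receptor, was at -0.20 ± 0.12 (adjusted p = 0.267), and the gene for PPARδ was not analysed here.

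Markers of other cells are given beside these values, and 0 of them passed the test over all genes (limma). All 8 macrophage markers and all 7 fibro-adipogenic progenitor markers had higher estimates in knockouts and all 5 endothelial markers lower ones, where 50.3% of all genes tested had higher and 49.7% lower estimates. At an unadjusted p under 0.05 were 7 of the macrophage, 5 of the progenitor and 0 of the endothelial markers, against 26.9% of all genes. The macrophage sum was 11897.9 to 19108.4 in knockouts and 7578.5 to 11690.2 in controls. That of the progenitors was 192047.1 to 261016.9 in knockouts and 150283.9 to 188354.7 in controls. Neither of these 2 sums overlapped between groups, but both gaps were narrow. Taken singly, 2 of the 8 macrophage and 2 of the 7 progenitor markers had groups that did not overlap, against 13.1% of all genes. Gsn was the largest term of the progenitor sum, at 112737.4 ± 6626.5 in knockouts and 83706.3 ± 14069.7 in controls, while Pdgfra, which defines these cells, was at 1683.3 ± 85.2 in knockouts and 1686.1 ± 234.3 in controls (SD, n = 4 each). The endothelial sum was 14143.1 to 16865.3 in knockouts and 15486.0 to 20257.4 in controls, with overlap. The part of these cells in the thioesterase values was not tested.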

How the data were processed

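RNA sequencing of 8 white quadriceps samples was deposited as 1 table of normalized expression. Per the labels' protocols, a Norgen Biotek kit served for RNA and an NEBNext Ultra II kit for libraries. Per the submitters' processing notes, the tools were STAR, HTSeq, DESeq2, cutadapt and FastQC and the build GRCm38, while versions, settings, strand and annotation were not given in the sources used here. As deposited by the authors, the values are on a log2 scale. With the log2 undone and 1 subtracted, they are whole multiples of 0.679 to 1.29 per library, and 100% of values lay within 0.1 of a whole read, so depth could be recovered.

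Because the unit is log2, no count test was used. The test was limma 3.58.1 (R 4.3.3) on log2(normalized count + 1) for genes that averaged 10 normalized counts or more, using eBayes with trend and robust set and Benjamini-Hochberg adjustment at 0.05 over all genes. Differences are on this scale and understate the change of low genes. The method was tested on simulated data. Within groups, the 12 pairs of libraries had a chi-square of 35.4 to 264.8 per gene, so no library was a repeat of another. Shares and sums carry no test. Exon lengths, 50-base windows and coding sequences came from GENCODE M21 (GRCm38), possibly not the annotation the authors counted with. Pairs of coding sequences were aligned globally.

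The members and lists were chosen with earlier results of these data known. Named genes were all members, all other listed thioesterases, the 2 of smallest p in each other list without a gene that passed, and the 3 patterns nearest to Acot2 and to Acot1; 1 gene that this rule names is not reported here. Marker genes and Myh7 were named after their values were seen. Alternatives were other pseudocounts, filters, scalings, weights and variance models, voom on recovered reads, removal of a loess trend over exon length (span 0.5), and libraries left out. The trend removal with control replicates 3 and 4 left out was added after seeing the data. Tables and plots were made with scipy 1.17.1, numpy 2.4.6, pandas 2.3.3, matplotlib 3.10.9 and Python 3.11.15.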

Additional observations from a re-analysis of the deposited data

How the results depend on the processing

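Acot2 passed the threshold under all 21 alternatives, with log2 differences of -3.41 to -3.06 (limma, adjusted p of 6.93e-08 to 0.0109). The number of genes that passed was 1, and it became 2 with no filter, with equal library totals or without knockout replicates 6 and 8, 5 with the length trend removed, 7 without the trend and robust options and 1201 with sample quality weights. Leaving out 1 library at a time gave 1 to 2048 genes. For Acot8 the sign turned with the length trend removed (-0.16) and with control replicates 3 and 4 left out besides (-0.01). Leaving out these 2 controls alone kept Acot8 at 0.06. Signs also turned for Acot9 with the trend removed (-0.02), and for Acot13 with the trend removed (-0.08), without control replicates 3 and 4 (-0.03) and with both (-0.12). With 1 library left out, Acot1 ran from -0.44 to 0.05, Acot8 from -0.10 to 0.19 and Acot11 from -0.08 to 0.16. Acot4 was not tested at a mean count of at least 50, and it rested on 12 to 24 reads in knockout libraries. No cause was tested.

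The ratio of Acot2 to Acot1 differed by -3.19 to -2.90 on the log2 scale with 1 library left out and by -2.97 without control replicates 3 and 4, designs whose exact p cannot go under 0.05. The Acot2 share of 2.37% in knockouts and 20.6% in controls became 1.26% in knockouts and 12.3% in controls per kilobase of merged exon and 1.13% in knockouts and 11.1% in controls per kilobase of the longest transcript. With 1 library left out it was 2.27% to 2.49% in knockouts and 18.2% to 22.4% in controls. The mitochondrial share of 70.3% in knockouts and 75.5% in controls became 86.0% in knockouts and 88.0% in controls per kilobase of merged exon, 82.1% in knockouts and 84.3% in controls per kilobase of the longest transcript, and 18.2% in knockouts and 33.9% in controls with the alternative placement. With 1 library left out it was 69.5% to 70.9% in knockouts and 75.0% to 76.2% in controls. No paired analysis was possible because the groups share no replicate number.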
